A study of Mus musculus with 11 samples.

Results

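The transcription factors *Pax9*, *Barx1*, *Lhx6*, *Lhx8*, *Osr1*, *Osr2*, *Prrx1*, *Prrx2* and *Twist1* were followed in maxillary molar tooth germs at E14.5. They were chosen by name, with earlier results of these data known. The factors mark the identity of the dental mesenchyme or the molar field and belong to neither the Dlx, the Msx nor the forkhead family. All 9 had an entry among the 16755 genes listed. There were 4 wild-type libraries, 4 libraries from *Cilk1*-/- embryos and 3 libraries from *Cilk1*-/-;PCS1-MRCS1△/△ embryos, called compound mutant here. In *Cilk1*-/- mice, exon 6 of *Cilk1*, a kinase of the primary cilium, had been deleted in the germ line with EIIa-Cre, so that every cell carried the deletion. The compound mutant carried the same deletion and in addition lacked the interval from PCS1 to MRCS1, which holds oral enhancers of *Shh*. Each biological replicate held n = 6, without a statement of whether germs or embryos were counted, and whole germs were used, so that dental epithelium and dental mesenchyme were measured as a mixture. The authors describe a smaller molar germ in *Cilk1*-/- at E14.5. In these embryos a diastemal supernumerary tooth had reached the cap stage while the first molar was a bud, whereas the wild-type first molar was a cap. Wild-type and mutant germs therefore need not be the same tooth. The question behind the comparisons was how tooth germs change as Hedgehog signaling is lowered from wild type to *Cilk1*-/- and further in the compound mutant.

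The dental mesenchyme descends largely from the cranial neural crest, and from the bud stage it holds the signals that drive the overlying epithelium into the cap. *Pax9*, a paired-domain factor, is needed for teeth to pass the bud stage, where it keeps *Bmp4* active, and *Barx1* is a homeobox factor of the molar rather than the incisor field. *Lhx6* and *Lhx8* are LIM-homeodomain factors that act redundantly in molar mesenchyme. *Osr1* and *Osr2* are zinc-finger factors of the odd-skipped family, and *Osr2* confines tooth formation to a single row by restraining *Bmp4* on the lingual side. *Prrx1* and *Prrx2* are paired-related homeobox factors of craniofacial mesenchyme, and *Twist1* is a bHLH factor of the neural crest.

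Positions are those of GENCODE M21 in GRCm38 (mm10). *Pax9* (ENSMUSG00000001497, chr12:56691767-56712822), *Osr1* (ENSMUSG00000048387, chr12:9570116-9581500) and *Twist1* (ENSMUSG00000035799, chr12:33957671-33959829) lie on the plus strand, as do *Barx1* (ENSMUSG00000021381, chr13:48662998-48666507), *Osr2* (ENSMUSG00000022330, chr15:35296098-35303305) and *Prrx2* (ENSMUSG00000039476, chr2:30834972-30881251). *Lhx6* (ENSMUSG00000026890, chr2:36081953-36105408), *Lhx8* (ENSMUSG00000096225, chr3:154306294-154330659) and *Prrx1* (ENSMUSG00000026586, chr1:163245119-163313710) lie on the minus strand. The exons of *Pax9* overlap those of *Slc25a21* on the opposite strand, and since the use of strand in the counting is not given in the sources used here, reads of these genes may have been shared and the level of *Pax9* is uncertain to that extent. The exons of *Lhx6* overlap *Gm27953*, a gene of the type misc_RNA on the same strand that the table does not list, and the level of *Lhx6* carries the same kind of uncertainty.

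RefSeq promoter windows, which run from 250 bases before to 50 bases after a transcript start, matched 7 of the 9 factors, with 9 windows in all. The windows of 3 factors are shown, each on its own strand and in GRCm38.p6. *Prrx1* and *Prrx2* are paralogues whose within-library difference was separated between *Cilk1*-/- and wild type. *Twist1* had the lowest p-value of the 9 factors in that comparison. The capitals mark the homeodomain core TAATTA in the window of *Prrx1* (chr1:163313601-163313900, minus strand), the GLI core CCACCCA in that of *Prrx2* (chr2:30845117-30845416, plus strand) and the TATA letters TATAAA in that of *Twist1* (chr12:33957421-33957720, plus strand).
Prrx1: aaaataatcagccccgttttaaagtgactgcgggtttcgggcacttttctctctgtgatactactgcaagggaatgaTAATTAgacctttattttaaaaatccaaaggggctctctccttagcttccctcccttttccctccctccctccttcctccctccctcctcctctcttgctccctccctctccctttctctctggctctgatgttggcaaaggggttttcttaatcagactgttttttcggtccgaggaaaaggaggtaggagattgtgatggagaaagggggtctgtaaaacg
Prrx2: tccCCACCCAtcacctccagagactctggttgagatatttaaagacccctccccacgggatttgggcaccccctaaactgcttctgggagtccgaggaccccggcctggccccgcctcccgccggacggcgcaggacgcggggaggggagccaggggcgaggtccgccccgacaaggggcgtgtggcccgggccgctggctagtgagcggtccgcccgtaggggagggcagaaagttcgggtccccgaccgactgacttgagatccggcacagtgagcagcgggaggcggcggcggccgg
Twist1: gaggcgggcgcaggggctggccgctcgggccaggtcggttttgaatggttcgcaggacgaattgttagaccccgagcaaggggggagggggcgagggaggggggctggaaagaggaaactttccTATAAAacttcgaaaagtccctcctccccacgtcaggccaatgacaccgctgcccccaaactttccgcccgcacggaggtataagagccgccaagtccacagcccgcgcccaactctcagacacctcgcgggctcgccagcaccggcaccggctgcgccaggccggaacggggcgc
Motifs were searched on both strands of each window. The GLI site GACCACCCA, whose last letters are the core CCACCCA, was in 0 of the 9 windows and in 0.253% of all 32851 RefSeq windows. CCACCCA was in the windows of *Barx1* and *Prrx2* and in 9.3% of all windows, TAATTA was in that of *Prrx1* and in 5.29%, and TATAAA was in those of *Lhx6* and *Twist1* and in 13.6%. The E-box CANNTG, the site of bHLH factors, was in windows of *Lhx6* and *Pax9* and in 72.3% of all. The printed windows differ in base composition, with 47.7% G and C in that of *Prrx1*, 70.3% in that of *Prrx2* and 66.0% in that of *Twist1*, against a median of 52.7% over all windows. Such matches are a description of letters, and their use in the tooth germ was not measured.

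Expression is given as the deposited log2 value, probably made from FPKM (fragments scaled by gene length and library size) with 1 added, so levels of different genes are compared per length. If so, the values were changed further after that step, since 328 of the 184305 values, in 257 genes, lay below 0, which log2(FPKM + 1) cannot; the 9 factors had no value under 3.55. What was done is not given in the sources used here. No read counts were used, and the depth of each library is unknown, so the error of a value is known only from replicate libraries. A gene was called changed at a Benjamini-Hochberg adjusted p-value under 0.05, over all 16755 genes in limma, together with a fold change of at least 1.5. *Cilk1*, listed under its older symbol *Ick*, was lower in every *Cilk1*-/- library than in every wild-type library, with a log2 difference of −0.73 (SE 0.0501, adjusted p = 0.000224). In the compound mutant it differed from wild type by −0.89 (SE 0.0542, adjusted p = 6.22e-05). Compound mutant replicate 1 stood apart from the other libraries in a principal component analysis of all genes, at 48.5 on the first component against −11.2 to 6.63, and compound mutant replicate 3 was lowest on the second component, at −28.9. Same-numbered libraries of wild type and *Cilk1*-/- deviated from their group means in opposite directions over all genes (r from −0.89 to −0.74). The mean of a same-numbered pair was almost the same for all 4 numbers, with a median range of 0.0348 log2 units over all genes, against a median range of 0.166 among the wild-type libraries and 0.163 among the *Cilk1*-/- libraries. A term shared by same-numbered libraries may thus have been taken out before deposit, which was not tested. These libraries are not independent of each other, the SE and p-values given here assume that they are, and those of *Cilk1*-/- against wild type may be too small for that reason. By the 2 protocol texts in the labels, replicates 1 to 3 of wild type and *Cilk1*-/- form one set, and replicate 4 of each forms the other with the compound mutant.

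In wild-type germs every factor was among the more highly expressed genes. *Barx1* had the highest level, a log2 value of 7.68 ± 0.106 (SD, n = 4), above 98.8% of all listed genes, and *Osr1* had the lowest, 4.30 ± 0.105 (SD, n = 4), above 74.8%. Between them came *Prrx1* with 6.94 ± 0.135 and *Prrx2* with 6.54 ± 0.0621, each separated from its neighbours in all 4 libraries. *Twist1* (6.21 ± 0.131), *Lhx8* (6.20 ± 0.195) and *Lhx6* (6.13 ± 0.15) did not differ beyond their spread, and the range of *Lhx6* also touched that of *Osr2* (5.92 ± 0.151). *Pax9* followed with 5.52 ± 0.0698, below every *Osr2* value and above every *Osr1* value. *Barx1* and *Prrx1* led and *Pax9* and *Osr1* closed this order in both mutants too. In the compound mutant, where the libraries spread widely, only *Twist1* and *Pax9* were still separated from the factor next below.

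**Figure D1:**
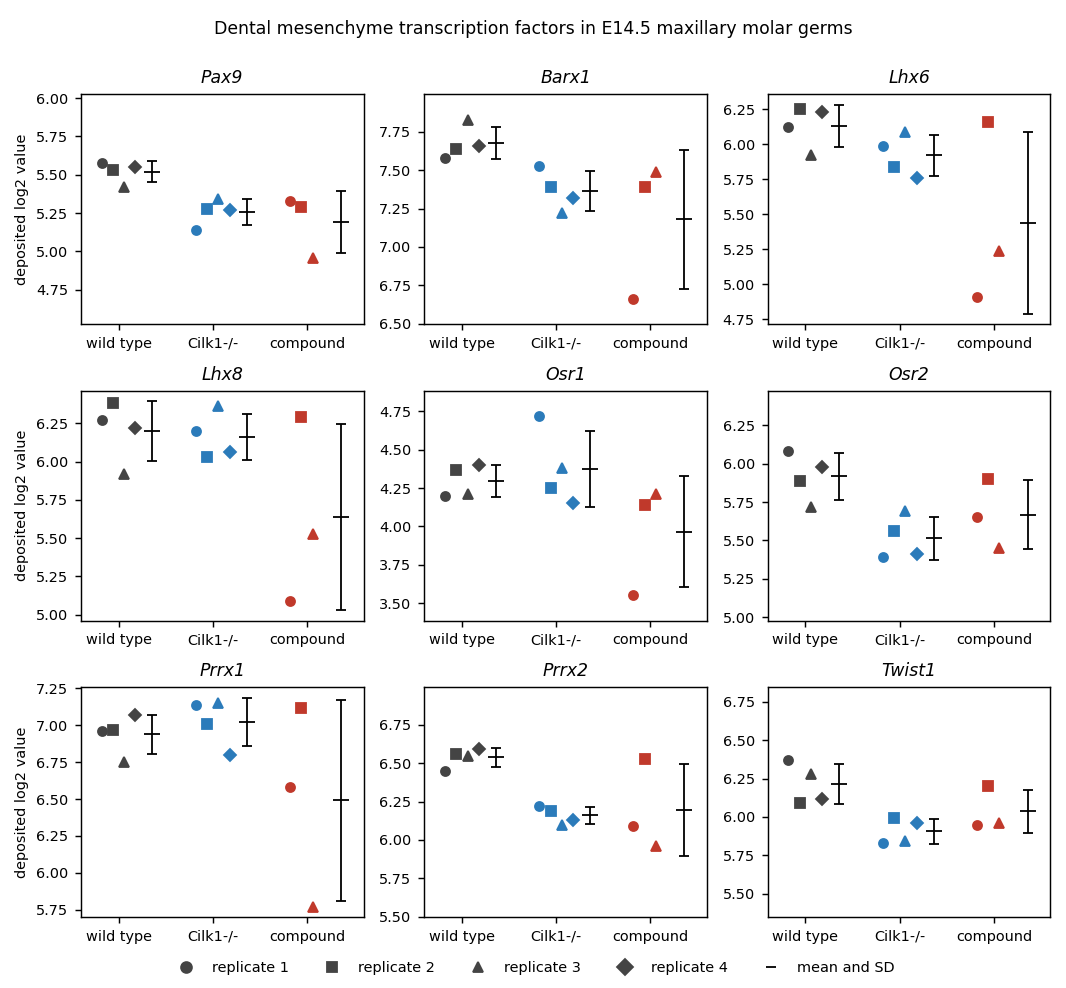
Deposited log2 value (vertical axis, a separate range in each panel) of the 9 factors in each library of wild type, Cilk1-/- and the compound mutant. Symbols give the replicate number and the bar gives the mean and SD. For Pax9, Barx1, Osr2, Prrx2 and Twist1 the 4 Cilk1-/- points lie below the 4 wild-type points, whereas the compound mutant points of Lhx6, Lhx8 and Prrx1 spread over more than 1 log2 unit.

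Loss of *Cilk1* alone went with slightly lower values of *Pax9*, *Barx1*, *Osr2*, *Prrx2* and *Twist1*, for each of which all 4 *Cilk1*-/- libraries lay below all 4 wild-type libraries. No factor was called: 0 of 9 in limma, where 0.37% of all genes were called (62 genes). At an unadjusted p-value under 0.05, 4 of the 9 were lower and 0 were higher, where 11.1% of all genes were lower and 9.57% higher. The 5 factors without overlap compare with 10.7% of all genes whose *Cilk1*-/- libraries all lay below wild type. In all, 7 of the 9 had a negative difference, as did 48.8% of all genes, and the median over the 9 was −0.26 log2 units against 0.0032 over all genes. In whole germs, fewer mesenchymal cells and less RNA per cell cannot be told apart.

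Among the factors of the molar field, *Pax9* had values of 5.58, 5.53, 5.42 and 5.55 in wild-type replicates 1 to 4 and of 5.14, 5.28, 5.34 and 5.27 in *Cilk1*-/- replicates 1 to 4. The highest *Cilk1*-/- value was thus under the lowest wild-type value, by little, and the difference was −0.26 log2 units (SE 0.0804, 95% interval −0.44 to −0.09, unadjusted p = 0.00774, adjusted p = 0.104). On the linear scale, as 2 raised to the deposited value, this is a change of −16.7%. *Barx1* had 7.58, 7.64, 7.83 and 7.66 in wild type and 7.53, 7.39, 7.22 and 7.32 in *Cilk1*-/-. Its groups were adjacent, with *Cilk1*-/- replicate 1 only just under wild-type replicate 1, and its difference of −0.31 (SE 0.157, interval −0.66 to 0.04, adjusted p = 0.295) reached neither threshold.

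*Osr2*, the restraint on lingual tooth formation, had the largest difference of the 9 in *Cilk1*-/-. Its values were 6.08, 5.89, 5.72 and 5.98 in wild type and 5.39, 5.56, 5.69 and 5.41 in *Cilk1*-/-. The groups were separated only by the small gap between wild-type replicate 3 and *Cilk1*-/- replicate 3, and the difference was −0.40 (SE 0.107, interval −0.64 to −0.16, unadjusted p = 0.00354, adjusted p = 0.0754). Its paralogue *Osr1* had 4.20, 4.37, 4.21 and 4.40 in wild type and 4.72, 4.25, 4.38 and 4.15 in *Cilk1*-/-. *Cilk1*-/- replicate 1 held the highest *Osr1* value of all libraries and *Cilk1*-/- replicate 4 lay below every wild-type value, so the groups overlapped (difference 0.08, SE 0.153, interval −0.26 to 0.42, adjusted p = 0.827).

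*Prrx2* showed the clearest separation. It had 6.45, 6.56, 6.55 and 6.59 in wild type and 6.22, 6.19, 6.10 and 6.13 in *Cilk1*-/-, a difference of −0.38 (SE 0.102, interval −0.60 to −0.15, unadjusted p = 0.00386, adjusted p = 0.0784). The SD was 0.0621 in wild type and 0.0560 in *Cilk1*-/-, and the spread within each group was small beside the distance between them. This spread may be too small if a term shared by same-numbered libraries was taken out before deposit. With the replicate number as a block in limma, the adjusted p-value of *Prrx2* was 0.193. *Prrx1* had 6.96, 6.97, 6.75 and 7.07 in wild type and 7.14, 7.01, 7.15 and 6.80 in *Cilk1*-/-, and these values overlapped (difference 0.08, SE 0.226, interval −0.42 to 0.58, adjusted p = 0.881). *Twist1* had 6.37, 6.09, 6.28 and 6.12 in wild type and 5.83, 5.99, 5.84 and 5.96 in *Cilk1*-/-. All *Cilk1*-/- values were under 6.09, the lowest wild-type value, and with −0.31 (SE 0.0776, interval −0.48 to −0.14, unadjusted p = 0.00242, adjusted p = 0.064) *Twist1* had the lowest p-value of the 9.

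The libraries of the LIM-homeodomain pair overlapped between *Cilk1*-/- and wild type. *Lhx6* had 6.12, 6.25, 5.92 and 6.23 in wild type and 5.99, 5.84, 6.09 and 5.76 in *Cilk1*-/-, where replicates 2 and 4 lay below the wild-type range and the others within it (difference −0.21, SE 0.217, adjusted p = 0.636). *Lhx8* had 6.27, 6.38, 5.92 and 6.22 in wild type and 6.20, 6.03, 6.36 and 6.06 in *Cilk1*-/-, all within the wild-type range (difference −0.04, SE 0.212, interval −0.50 to 0.43, adjusted p = 0.954).

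The 5 separated factors passed the adjusted p-value, though not the fold change, when the compound mutant was left out of the fit. In a fit of wild type and *Cilk1*-/- alone, the adjusted p-values were 0.0133 for *Pax9*, 0.0269 for *Barx1*, 0.0187 for *Osr2*, 0.00276 for *Prrx2* and 0.0195 for *Twist1*, and 7.94% of all genes were lower at an adjusted p-value under 0.05. None of the 5 reached a fold change of 1.5 there either, since the differences are the same, and this fit too took same-numbered libraries as independent. Within the set of replicates 1 to 3, the differences were −0.26 for *Pax9*, −0.30 for *Barx1*, −0.35 for *Osr2*, −0.35 for *Prrx2* and −0.36 for *Twist1*, and in the set of replicate 4 they were −0.28, −0.34, −0.57, −0.46 and −0.16. *Lhx8*, *Osr1* and *Prrx1* had differences of 0.01, 0.19 and 0.20 in the first of these sets and −0.16, −0.25 and −0.27 in the other, so that 6 and 9 of the 9 factors were lower within the sets. The count of 9 rests on 1 *Cilk1*-/- library against 1 wild-type library, and the shares of all genes within the sets were not counted.

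**Figure D2:**
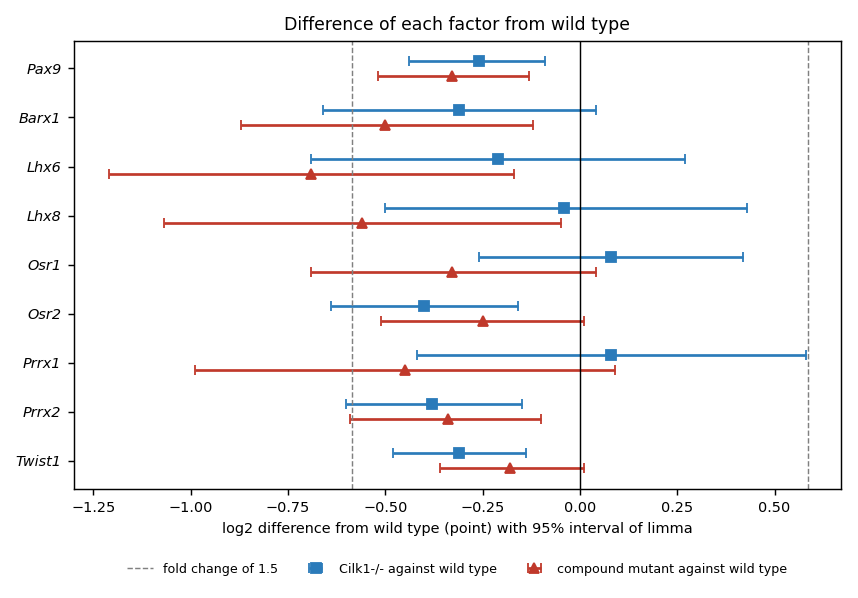
Log2 difference from wild type (horizontal axis) with the 95% interval of limma for each factor, in Cilk1-/- (squares) and in the compound mutant (triangles). Dashed lines mark a fold change of 1.5. The intervals of Pax9, Osr2, Prrx2 and Twist1 exclude 0 in Cilk1-/-, and only the compound mutant point of Lhx6 lies past the dashed line.

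All 9 factors had lower means in the compound mutant than in wild type, but the 3 mutant libraries were far apart. Again 0 of 9 were called in limma, where 1.25% of all genes were (209 genes). At an unadjusted p-value under 0.05, 5 of the 9 were lower (*Pax9*, *Barx1*, *Lhx6*, *Lhx8* and *Prrx2*) and 0 were higher, where 13.8% of all genes were lower and 12.9% higher. The fit takes 1 spread per gene for all 3 groups. Every factor, however, had a larger SD in the compound mutant than in wild type, for *Lhx6* 0.648 against 0.15 and for *Lhx8* 0.609 against 0.195. The SE, intervals and p-values given for the compound mutant may therefore be too small. Without overlap between the groups, *Pax9* and *Barx1* were lower, as were 9.05% of all genes. A negative difference was seen for 50.6% of all genes, and the median over the 9 was −0.34 against −0.00164 over all genes. Both comparisons with wild type share the same control libraries, so their values are given side by side and not as independent results.

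*Lhx6* and *Lhx8* had the lowest compound mutant values relative to wild type. *Lhx6* had 4.91, 6.16 and 5.24 in compound mutant replicates 1 to 3, with a difference of −0.69 from wild type (SE 0.234, interval −1.21 to −0.17, unadjusted p = 0.0137, adjusted p = 0.0999). Replicates 1 and 3 were below every wild-type and every *Cilk1*-/- library, and replicate 2 was within the wild-type range. *Lhx8* had the same order, with 5.09, 6.29 and 5.53 and a difference of −0.56 (SE 0.229, interval −1.07 to −0.05, unadjusted p = 0.0333, adjusted p = 0.155).

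*Prrx1* was divided in the same way. Its compound mutant values were 6.58, 7.12 and 5.77, of which the second was within the *Cilk1*-/- range and the last was the lowest of all libraries (difference −0.45, SE 0.244, interval −0.99 to 0.09, adjusted p = 0.258). *Prrx2* had 6.09, 6.53 and 5.96, with replicate 2 again inside the wild-type range and the others below it (difference −0.34, SE 0.110, interval −0.59 to −0.10, adjusted p = 0.0849). *Twist1* had 5.95, 6.20 and 5.96, and its difference of −0.18 (SE 0.0838, interval −0.36 to 0.01, adjusted p = 0.203) was the smallest of the 9.

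*Pax9* had 5.33, 5.29 and 4.96 in the compound mutant, all under the lowest wild-type value, and its adjusted p-value came nearest to the threshold (difference −0.33, SE 0.0868, interval −0.52 to −0.13, adjusted p = 0.0511). *Barx1* had 6.66, 7.39 and 7.49, of which replicate 1 was the lowest of all libraries while the others lay just under the wild-type range (difference −0.50, SE 0.169, interval −0.87 to −0.12, adjusted p = 0.103). *Osr1* had 3.55, 4.14 and 4.21, with replicate 1 far below every other library and replicate 3 level with the lower wild-type values (difference −0.33, SE 0.165, adjusted p = 0.225). *Osr2* had 5.65, 5.90 and 5.45, where replicate 2 overlapped wild type (difference −0.25, SE 0.116, adjusted p = 0.199).

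Counted by library, 9 factors lay below the lowest wild-type value in compound mutant replicate 1, 3 in replicate 2 and 8 in replicate 3, against 5, 6, 5 and 7 in *Cilk1*-/- replicates 1 to 4. The median difference of the 9 from the wild-type mean was −0.45, −0.01 and −0.56 in compound mutant replicates 1 to 3, and between −0.25 and −0.14 in the *Cilk1*-/- libraries. Replicate 1 was the lowest of all 11 libraries for 4 factors (*Barx1*, *Lhx6*, *Lhx8* and *Osr1*) and replicate 3 for 3 factors (*Pax9*, *Prrx1* and *Prrx2*). Neither count was set beside a share over all genes, and compound mutant replicate 1 stood apart over all genes. These counts therefore describe the libraries and are not a result particular to the 9 factors. The set of libraries that holds the compound mutant has only 1 wild-type library, and there 6 of the 9 factors were lower than it in all 3 compound mutant libraries. The share of all genes with this property was not counted either.

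**Figure D3:**
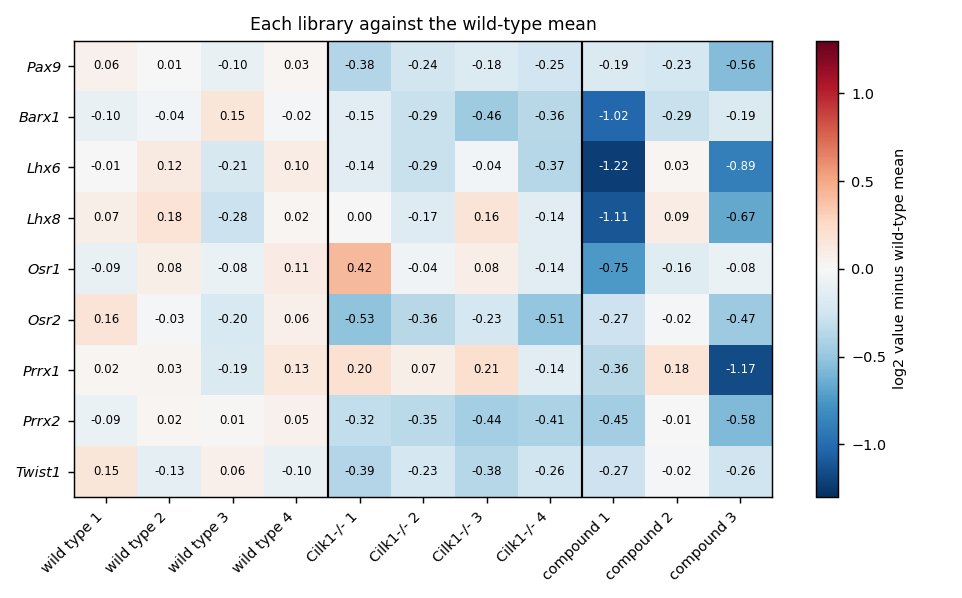
Log2 value of each factor (rows) in each library (columns) minus the wild-type mean, printed in each cell and shown by the color scale in log2 units. The columns of compound mutant replicates 1 and 3 hold the darkest cells, −1.22 for Lhx6 in replicate 1 and −1.17 for Prrx1 in replicate 3, and the column of replicate 2 lies between −0.29 and 0.18.

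Single libraries therefore decided several of these calls. Without compound mutant replicate 2, 3 factors were called lower than wild type, namely *Lhx6* (−1.05, adjusted p = 0.00141), *Lhx8* (−0.89, adjusted p = 0.00613) and *Prrx1* (−0.77, adjusted p = 0.025), where 1.16% of all genes were called lower. Without compound mutant replicate 3, *Barx1* was called (−0.65, adjusted p = 0.0442), where 0.985% of all genes were called lower, and the difference of *Prrx1* shrank to −0.09. Without compound mutant replicate 1, the library that stood apart, 0 of 9 were called in limma, 3 were lower at an unadjusted p-value under 0.05, the median of the 9 was −0.28, and the differences of *Barx1*, *Lhx8* and *Osr1* were −0.24, −0.28 and −0.12.

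Markers of other cell types moved with these libraries, and their part in the results was not tested. The mean log2 value of the 4 cartilage markers was 6.29 in compound mutant replicate 1 and between 1.15 and 2.05 in all other libraries. The mean of the 6 listed neuron markers was 4.10 there and between 1.10 and 2.10 elsewhere. The mean of the 6 Schwann cell and glia markers was 2.78 there and between 1.76 and 2.14 elsewhere, and each of the 6 had its highest value in that library. In compound mutant replicate 3, the 5 erythroid markers had a mean of 4.23 against 5.76 to 6.37 in the other libraries, and the 4 enamel knot markers had 4.43 against 3.13 to 3.93. The 7 listed skeletal muscle markers had a mean between 0.78 and 0.86 in the compound mutant, 1 and 1.95 in wild type and 1.57 and 2.59 in *Cilk1*-/-. All 9 mesenchyme markers, among them *Vim*, *Col1a1* and *Pdgfra*, were above 1 in every library, and their mean was between 6.95 and 7.21 in wild type, 7.01 and 7.35 in *Cilk1*-/- and 6.92 and 7.32 in the compound mutant. The 8 epithelium markers had means between 6.31 and 6.53, 6.34 and 6.67, and 5.79 and 6.64, with the lowest in compound mutant replicate 1. Bone markers ranged from 2.70 in *Cilk1*-/- replicate 3 to 4.72 in wild-type replicate 3.

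**Figure D4:**
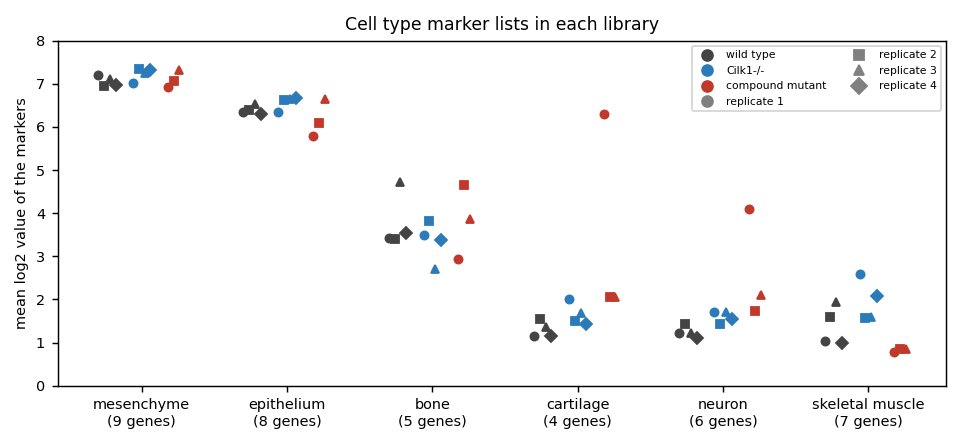
Mean deposited log2 value (vertical axis) of 6 marker lists in each library, with colors for the genotype and symbols for the replicate number. Compound mutant replicate 1 stands at 6.29 for cartilage and 4.10 for neuron, far above the other libraries, while the mesenchyme markers lie between 6.92 and 7.35 in all libraries.

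Compared with *Cilk1*-/-, the compound mutant had lower means for 6 of the 9 factors, as for 49% of all genes, and 0 were called in limma, where 0.543% of all genes were (91 genes). *Lhx8* (−0.52, SE 0.229, unadjusted p = 0.0435, adjusted p = 0.204) and *Osr1* (−0.41, SE 0.165, unadjusted p = 0.0322, adjusted p = 0.177) were lower at an unadjusted p-value under 0.05 and 0 were higher, where 12.3% of all genes were lower and 10.9% higher. No factor was separated between these groups in either direction, where 9.3% of all genes were separated and lower and 7.74% separated and higher. *Lhx6* and *Prrx1* had differences of −0.48 and −0.54, with adjusted p-values of 0.243 and 0.219. *Osr2* and *Twist1* differed the other way, by 0.15 (interval −0.10 to 0.41) and 0.13 (interval −0.06 to 0.32), and *Prrx2* by 0.03 (interval −0.21 to 0.27). Without compound mutant replicate 2, *Lhx6*, *Lhx8* and *Prrx1* were called lower, each with a difference of −0.85 (adjusted p = 0.00646, 0.0133 and 0.0297), where 0.812% of all genes were called lower.

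The difference between the paralogues of each pair was separated between *Cilk1*-/- and wild type. These differences were taken within each library and are described without a test. How often the differences of other gene pairs separate was not counted, and same-numbered libraries of these groups are not independent. *Prrx2* minus *Prrx1* was −0.52, −0.42, −0.20 and −0.48 log2 units in wild type and −0.92, −0.81, −1.04 and −0.67 in *Cilk1*-/-, so *Prrx2* lay further under *Prrx1* in every *Cilk1*-/- library. In the compound mutant it was −0.48, −0.59 and 0.19, above all *Cilk1*-/- libraries. *Osr2* minus *Osr1* was 1.88, 1.51, 1.51 and 1.58 in wild type, 0.67, 1.31, 1.31 and 1.27 in *Cilk1*-/- and 2.10, 1.76 and 1.24 in the compound mutant. The distance between *Osr2* and *Osr1* was thus smaller in all *Cilk1*-/- libraries than in wild type, and the compound mutant overlapped both groups. *Lhx8* minus *Lhx6* was 0.15, 0.13, 0.00 and 0.00 in wild type and 0.21, 0.19, 0.27 and 0.30 in *Cilk1*-/-, a small shift in which *Lhx8* stood above *Lhx6* in every mutant library, the compound mutant with 0.18, 0.13 and 0.29 included.

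**Figure D5:**
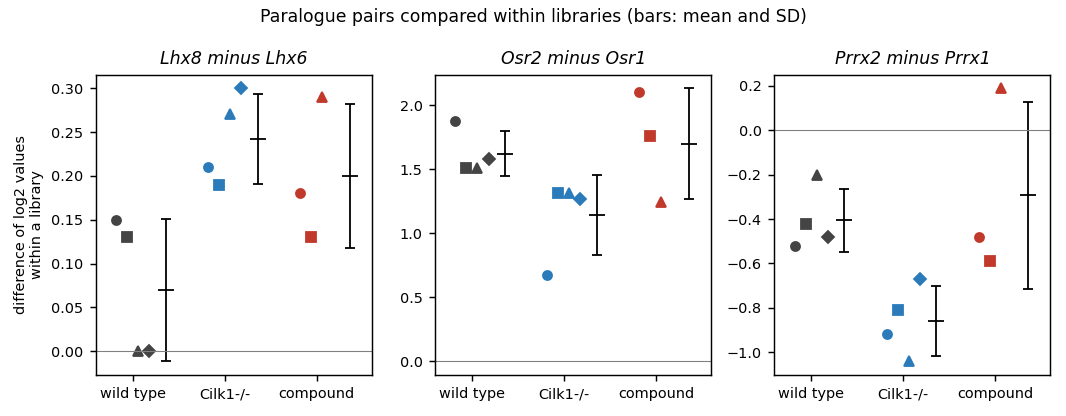
Difference of the log2 values of the 2 members of a pair within each library (vertical axis, a separate range in each panel), by genotype, with the mean and SD as bars. Circles, squares, triangles and diamonds are replicates 1 to 4. The Cilk1-/- points lie below the wild-type points for Osr2 minus Osr1 and for Prrx2 minus Prrx1 and above them for Lhx8 minus Lhx6.

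Over the 11 libraries, *Lhx6* and *Lhx8* had the most similar pattern of any 2 of the factors (Pearson r = 0.971), and *Osr1* and *Twist1* the least (r = −0.149). *Osr1* and *Osr2* had r = −0.0738 and *Prrx1* and *Prrx2* r = 0.527. The genes most like each factor, among the genes with a mean of at least 1, were *Epha7* for *Lhx6* (r = 0.99, n = 11, and 0.938 without the 2 libraries farthest from the median of *Lhx6*), *Mcm7* for *Prrx2* (r = 0.993 and 0.991), *Prdx4* for *Twist1* (r = 0.986 and 0.967), *Tyw1* for *Pax9* (r = 0.981 and 0.953) and *Mapre1* for *Barx1* (r = 0.979 and 0.909). *Ppp1r3b* was nearest to *Prrx1* (r = 0.972), *Lrfn4* to *Osr2* (r = 0.959), *Ttc23* to *Osr1* (r = 0.95) and *Lhx6* to *Lhx8*. The second nearest genes were *Lrig1* for *Pax9*, *Kif20b* for *Barx1*, *Gria1* for *Lhx6*, *Tmlhe* for *Lhx8*, *Cdk6* for *Osr1*, *Fbxl6* for *Osr2*, *Dleu2* for *Prrx1*, *Gfer* for *Prrx2* and *Slc20a1* for *Twist1*, with r between 0.94 and 0.982. These are the highest of 13027 values for each factor, the libraries share their groups, and without compound mutant replicates 1 and 3 the r of *Lhx6* and *Lhx8* was 0.799.

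Other genes of the dental mesenchyme were compared by lists. Of 13 other transcription factors (Msx, Dlx and forkhead genes and *Runx2*), 1 passed both thresholds in *Cilk1*-/-, 2 passed them in the compound mutant, and all of these were lower, with medians of −0.05 and −0.16. None was called higher in limma, and 0.37% and 1.25% of all genes were called in either direction. At an unadjusted p-value under 0.05, 3 were lower and 0 higher in *Cilk1*-/-, where 11.1% of all genes were lower and 9.57% higher. In the compound mutant 5 were lower and 2 higher, where 13.8% of all genes were lower and 12.9% higher. *Foxf2*, a forkhead target of Hedgehog signaling, had a mean of 4.94 in wild type, 3.63 in *Cilk1*-/- (difference −1.31, SE 0.165, adjusted p = 0.00712) and 3.24 in the compound mutant (difference −1.69, SE 0.178, adjusted p = 0.00198). *Foxd1*, also a forkhead factor, fell in the compound mutant (difference −0.86, SE 0.189, adjusted p = 0.0293), a call that was lost without any of the 4 wild-type libraries or without compound mutant replicate 1, at differences from −0.88 to −0.83. It was not called in *Cilk1*-/- (difference −0.66, adjusted p = 0.0736 in limma), where all 4 libraries lay below wild type. The mutants overlapped (difference −0.20, adjusted p = 0.567).

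Of 17 other transcription factors of craniofacial mesenchyme, 16 were listed, and their medians were −0.04 in *Cilk1*-/- and 0.08 in the compound mutant. *Snai1*, a zinc-finger factor of mesenchymal transition, was called lower in *Cilk1*-/- (difference −0.60, SE 0.0611, adjusted p = 0.00306) and not without wild-type replicate 4 or *Cilk1*-/- replicate 4, at −0.57 each. In the compound mutant, which carries the same *Cilk1* deletion, *Snai1* was near wild type (difference −0.09, SE 0.066, adjusted p = 0.409 in limma). All compound mutant libraries lay above all *Cilk1*-/- libraries (difference 0.51, adjusted p = 0.00915), without reaching the fold change. *Shox2*, a short-stature homeobox factor, fell in the compound mutant by 1.06 on the log2 scale (SE 0.177, adjusted p = 0.0116) and *Gsc*, the homeobox gene goosecoid, rose by 0.63 (SE 0.152, adjusted p = 0.0379). Neither was called in *Cilk1*-/- in limma. There *Shox2* differed by −0.32 (adjusted p = 0.299), with all 4 libraries below wild type, and *Gsc* by 0.23 (adjusted p = 0.38), with overlap. The call of *Gsc* was lost without any 1 of 9 of the 11 libraries, all but *Cilk1*-/- replicate 1 and compound mutant replicate 3, at differences from 0.49 to 0.69.

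Of 11 signals and matrix genes of the bud mesenchyme that are linked to *Pax9*, *Msx1* or *Osr2*, 0 were called in *Cilk1*-/- in limma, where 3 were lower and 0 higher at an unadjusted p-value under 0.05, and 3 were called lower in the compound mutant. Over all genes, 0.37% and 1.25% were called in either direction in these comparisons. In *Cilk1*-/-, 11.1% of all genes were lower and 9.57% higher at the unadjusted threshold. The medians of the 11 were −0.05 and −0.17. *Inhba*, the activin subunit beta A made by the mesenchyme, fell against wild type (difference −0.71, SE 0.123, adjusted p = 0.0133) and against *Cilk1*-/- (difference −0.86, SE 0.123, adjusted p = 0.0101). *Dkk2*, a Wnt antagonist, did so too, with differences of −0.65 (SE 0.137, adjusted p = 0.0244) and −0.89 (SE 0.137, adjusted p = 0.0125). Against wild type, the call of *Inhba* was lost without compound mutant replicate 1 (−0.58) and that of *Dkk2* without wild-type replicate 1, 2 or 4 or compound mutant replicate 3 (from −0.68 to −0.50). *Sostdc1*, an inhibitor of BMP and Wnt signals, had a difference of −1.31 from wild type in the compound mutant (SE 0.187, adjusted p = 0.00622). In *Cilk1*-/- its difference was −0.74 (SE 0.173, adjusted p = 0.0545 in limma). All 4 *Cilk1*-/- libraries lay below every wild-type library, although the adjusted p-value narrowly missed the threshold. At a later stage, the authors saw *Sostdc1* in both epithelium and mesenchyme of the wild-type molar. Its value in whole germs may thus not be that of the mesenchyme alone.

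The 9 cofactors of LIM-homeodomain proteins and partners of bHLH factors (among them *Ldb1*, *Lmo4*, *Tcf3* and *Id1*) held 0 called genes in each comparison in limma. At an unadjusted p-value under 0.05, 1 was lower in *Cilk1*-/-, and 2 were lower and 2 higher in the compound mutant. By the same measure, 11.1% of all genes were lower in *Cilk1*-/-, and 13.8% were lower and 12.9% higher in the compound mutant. Their differences from wild type ran from −0.18 to 0.24 in *Cilk1*-/- and from −0.21 to 0.34 in the compound mutant.

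The listed Hedgehog targets differed more from wild type than the 9 factors, but this list is not independent of these data. The authors had reported *Ptch1*, *Gli1*, *Hhip*, *Foxf2*, *Foxl1* and *Sostdc1* as lower in both mutants from the same RNA-sequencing. Of 8 such genes, which include *Foxf2* and *Sostdc1* from the lists above, 4 were called lower in *Cilk1*-/- (*Ptch1*, *Gli1*, *Foxf2* and *Foxl1*) and 6 in the compound mutant (these, *Hhip* and *Sostdc1*). Of all genes, 0.37% and 1.25% were called in either direction. The medians of the 8 were −0.74 and −1.13. *Ptch1*, the Hedgehog receptor, had a mean of 6.07 in wild type, 5.18 in *Cilk1*-/- (difference −0.89, SE 0.184, adjusted p = 0.0374) and 4.41 in the compound mutant (difference −1.66, SE 0.198, adjusted p = 0.00284). *Gli1*, the transcriptional effector, had means of 6.55, 5.65 (difference −0.90, SE 0.179, adjusted p = 0.0343) and 5.12 (difference −1.43, SE 0.193, adjusted p = 0.005). *Foxl1*, a forkhead target, had differences of −0.75 (adjusted p = 0.0272) and −0.88 (adjusted p = 0.013), and *Hhip*, a Hedgehog-binding antagonist, one of −0.94 in the compound mutant (adjusted p = 0.00245). In *Cilk1*-/-, *Hhip* was lower by a difference of −0.45 (adjusted p = 0.045 in limma), without reaching the fold change. The *Cilk1*-/- calls of *Ptch1*, *Gli1* and *Foxl1* were each lost without any 1 of the 8 libraries compared, at differences from −0.94 to −0.69.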

How the data were processed

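RNA-sequencing values of maxillary molar tooth germs at E14.5 were taken from 1 deposited table of 16755 genes in 11 libraries, with 0 columns left unused. Per the labels and the study's methods, the authors sequenced poly-A RNA, mapped the reads to mm10 with HISAT2 2.0.5, counted them per gene with featureCounts 1.5.0-p3 and calculated FPKM. The authors deposited log2 values, probably log2(FPKM + 1) that was adjusted further, since some lie below 0, although neither the scale nor the adjustment is named. With 1 subtracted after unlogging, they sum to between 339970 and 364615 per library. The depth is unknown, and only the spread between libraries gives the precision. Groups came from the genotype in the labels.

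The 3 genotypes were compared in 1 fit of limma 3.58.1 (R 4.3.3, lmFit and eBayes with trend and robust), without covariates, over all genes, and called where the fold change was 1.5 or more and the Benjamini-Hochberg adjusted p-value below 0.05. The fit was tested on simulated data. The members, the 5 lists and the marker lists were chosen with earlier results of these data known. Genes named are the 9 factors, list genes called in a comparison, *Cilk1*, *Ptch1* and *Gli1*, and the 2 genes with the highest Pearson r to each factor. *Hand2* was not used here. The alternatives were a fit of only the 2 groups compared, 2 replicate blocks, the set of libraries as a term or alone, other thresholds, eBayes without trend and robust, a filter at a mean of 1, a pseudocount of 0.1 (values below 0 set to 0), quantile and median normalization, leaving out each library and, added after seeing the data, centring on the mean of the 9 mesenchyme markers. No 2 libraries were identical. Promoters are from RefSeq (GRCm38.p6), and the promoter entries of *Osr1* and *Osr2* were not used here. Plots were drawn in matplotlib 3.10.9 (Python 3.11.15).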

Additional observations from a re-analysis of the deposited data

How the results depend on the processing

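Of 648 values of the 9 factors under an alternative, 629 were counted as unchanged, 8 passed the thresholds of that alternative only there and 11 changed sign. Unchanged means the same direction and the same side of the thresholds of that alternative. The compound mutant values within the set of replicate 4 had no test. They were counted as unchanged because they differed from the main value by less than the larger SD of the groups compared. The number of genes called moved more. In *Cilk1*-/- against wild type it was 62, and 130 in a fit of only these groups, 37 with the set of libraries as a term, 38 in replicates 1 to 3 alone, 409 without a fold minimum, 126 at an unadjusted p-value with the fold minimum, 123 with a pseudocount of 0.1 and 15 to 95 when 1 library was left out. In the compound mutant against wild type it was 209, and in the same order 34, 18 (set term), 1102, 499, 547 and 80 to 671, and 114 after centring on the mesenchyme markers. Against *Cilk1*-/- it was 91, and 1, 1 (set term), 558, 350, 294 and 36 to 360. The factors called in the compound mutant numbered 1 (*Lhx6*, −0.69) against wild type at an unadjusted p-value with the fold minimum, and 0 to 3 in each comparison when 1 library was left out.

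With the replicate number as a block, 4, 26 and 2 genes were called in the 3 comparisons, and with the compound mutant in the block of pair 4, 4, 0 and 0. The labels do not say that a number marks a litter, the same-numbered deviations of wild type and *Cilk1*-/- had r = −0.74, −0.89, −0.85 and −0.79, and with the block the adjusted p-values of the 9 factors ran from 0.193 to 0.967 in *Cilk1*-/-. Of the list genes, the *Cilk1*-/- calls of *Ptch1*, *Gli1*, *Foxf2*, *Foxl1* and *Snai1* and the compound mutant calls of *Foxd1*, *Shox2*, *Gsc*, *Inhba*, *Dkk2* and *Foxl1* were lost with this block. Over all alternatives, 796 values of the 13 other named genes were unchanged in the sense given above, which includes untested values, 108 lost a call, 26 gained one and 3 changed sign.

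Signs changed for small differences. *Lhx8* in *Cilk1*-/- was 0.01 in replicates 1 to 3 alone, 0.03 after quantile normalization and −0.13 to 0.02 when 1 library was left out. After centring on the mesenchyme markers, *Osr1* and *Prrx1* in *Cilk1*-/- were −0.10 and −0.09, *Inhba* −0.03, and against *Cilk1*-/- *Pax9* was 0.08 and *Foxl1* 0.01 in the compound mutant. When 1 library was left out, *Osr1* in *Cilk1*-/- ranged from −0.04 to 0.15, and against *Cilk1*-/- the compound mutant ranged from −0.13 to 0.06 for *Pax9*, −0.34 to 0.07 for *Barx1* and −0.14 to 0.15 for *Prrx2*, and *Foxd1* reached 0.02. *Barx1*, *Lhx6*, *Lhx8* and *Prrx1* against wild type ranged from −0.65 to −0.24, −1.05 to −0.43, −0.89 to −0.28 and −0.77 to −0.09, and *Lhx6*, *Lhx8* and *Prrx1* against *Cilk1*-/- from −0.85 to −0.22, −0.85 to −0.25 and −0.85 to −0.18. The cause was not tested. Depth, which would limit the precision of low genes, is unknown.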

Other observations

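Taken relative to the mesenchyme markers of the same library, a scale chosen after the values were seen, *Twist1* varied very little in wild type. Its log2 value minus the mean of the 9 mesenchyme markers was −0.84, −0.86, −0.83 and −0.86 in wild-type replicates 1 to 4, and −1.18, −1.37, −1.42 and −1.36 in *Cilk1*-/- replicates 1 to 4. The compound mutant had −0.97, −0.86 and −1.36, so that replicate 2 was level with wild type and replicate 3 with *Cilk1*-/-. *Pax9* had −1.63, −1.42, −1.69 and −1.43 in wild type and −1.87, −2.08, −1.92 and −2.05 in *Cilk1*-/-, and −1.59, −1.77 and −2.36 in the compound mutant. *Osr2* had −1.13, −1.07, −1.39 and −1 in wild type, −1.62, −1.79, −1.58 and −1.91 in *Cilk1*-/- and −1.27, −1.16 and −1.87 in the compound mutant. The marker mean was 0.18 log2 units higher in *Cilk1*-/- than in wild type, so centring all libraries on it lowers every gene's difference by about that amount. The differences of *Cilk1*-/- from wild type were then −0.48 for *Twist1* (adjusted p = 0.115, limma), −0.44 for *Pax9* (adjusted p = 0.174), −0.58 for *Osr2* (adjusted p = 0.0717) and −0.55 for *Prrx2* (adjusted p = 0.115), and 0 of the 9 factors were called.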
